A study of Mus musculus with 5 samples.

Results

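Fatty acid uptake, mitochondrial fatty acid oxidation and ketone use were followed through 33 genes, taken by their symbols from the expression tables of 5 neonatal mouse heart sections. All 33 were listed in 4 of the tables, and 32 were listed in all 5 and reached 1 CPM in 2 or more sections, the filter on low values. CPM scales the transcripts counted for a gene in a spot to a common total for every spot, and section values are means over spots. The member left out of the tests was Ppara, which one table did not list. The tested members stood among 12933 tested genes. The sections came from wild-type C57BL/6 mice operated on at postnatal day 1, either with ligation of the left anterior descending coronary artery to give a myocardial infarction (MI) or with sham surgery. Each section was 10 µm thick and was cut 200 µm under the ligation site or from the same height of a sham heart. The groups were 1 Sham day 3 section, 1 MI day 3 section, 1 Sham day 7 section and 2 MI day 7 sections, with days counted from surgery. The comparison of days asked how these genes stood in sections a few days apart in early postnatal life, and the comparison of operations how they stood after infarction.

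The heart is born into a change of fuel. Before birth it runs largely on glucose and lactate, and once milk feeding begins it comes to draw most of its ATP from fatty acids, with ketone bodies used beside them during suckling. Long-chain fatty acids are released from lipoproteins by lipoprotein lipase, taken up and bound by Cd36, Slc27a1 and Fabp3, activated by Acsl1, carried into mitochondria by the carnitine shuttle and shortened by the repeated steps of β-oxidation, whose electrons leave through the electron transfer flavoprotein. Many genes of this route are targets of the nuclear receptor PPARα (Ppara) and of its coactivator PGC-1α (Ppargc1a).

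The 5 sections held 3364 spots in all, from 376 to 960 a section, and a median of 20842.5 to 53940 raw UMIs per spot. A Visium spot takes in RNA from several neighbouring cells, and fewer cells of a type could not be told apart from less RNA per cell. The tissue label was borne out by 8 cardiomyocyte markers, whose summed level lay between 33338 and 41937 CPM. The MI day 3 section carried the least cardiomyocyte marker RNA and the most immune marker RNA, 893 CPM over 6 markers against 90.6 to 242 CPM in the other sections. It also held 24 spots of low depth, below the section's median depth divided by 3, against 3 to 10 in each other section. Only MI day 7 had a second section, and the MI day 7 replicates carried markers of different sexes, so they came from different animals. Sham day 3 and MI day 7 replicate 1 held Xist, at 39.0 and 48.5 CPM, and no Ddx3y. MI day 3, Sham day 7 and MI day 7 replicate 2 held Ddx3y and no Xist. Sex could therefore not be told apart from operation at day 3, or from day between the sham sections. No label says whether the other sections came from separate litters or days, and p-values rest on at most 2 residual degrees of freedom among sections. The Sham day 3 table held raw counts and the other 4 held corrected counts, so that the 2 day 3 sections were not processed alike.

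The set ran from abundant transcripts to genes at the edge of detection. Fabp3, the fatty acid-binding protein of cardiac muscle, took 8600.3 CPM in Sham day 3, 6659 in MI day 3, 9478 in Sham day 7, and 7736 and 9265 in the MI day 7 sections. It made up 38.2% to 44.9% of the summed level of the 32 tested members. The trifunctional protein subunits Hadha and Hadhb, the long-chain acyl-CoA dehydrogenase Acadl and the thiolase Acaa2 each lay between 767 and 1127 CPM, and the dominant carnitine palmitoyltransferase was the muscle form Cpt1b, at 310.0 to 456 CPM. At the other end Bdh1, which interconverts the ketone bodies acetoacetate and β-hydroxybutyrate, lay between 0.402 and 1.44 CPM. Ppara was covered by 12 UMIs in the 544 spots of Sham day 3, a 95% Poisson interval of 6.20 to 21.0, and no change in it could be read at this depth. For the members other than Ppara and Bdh1 the counting interval in that section, the one deposited as raw counts, was at most ± 9.39% of the value and covers counting error only. Each captured molecule is counted once whatever its length, so these CPM levels were not divided by length.

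**Figure D1:**
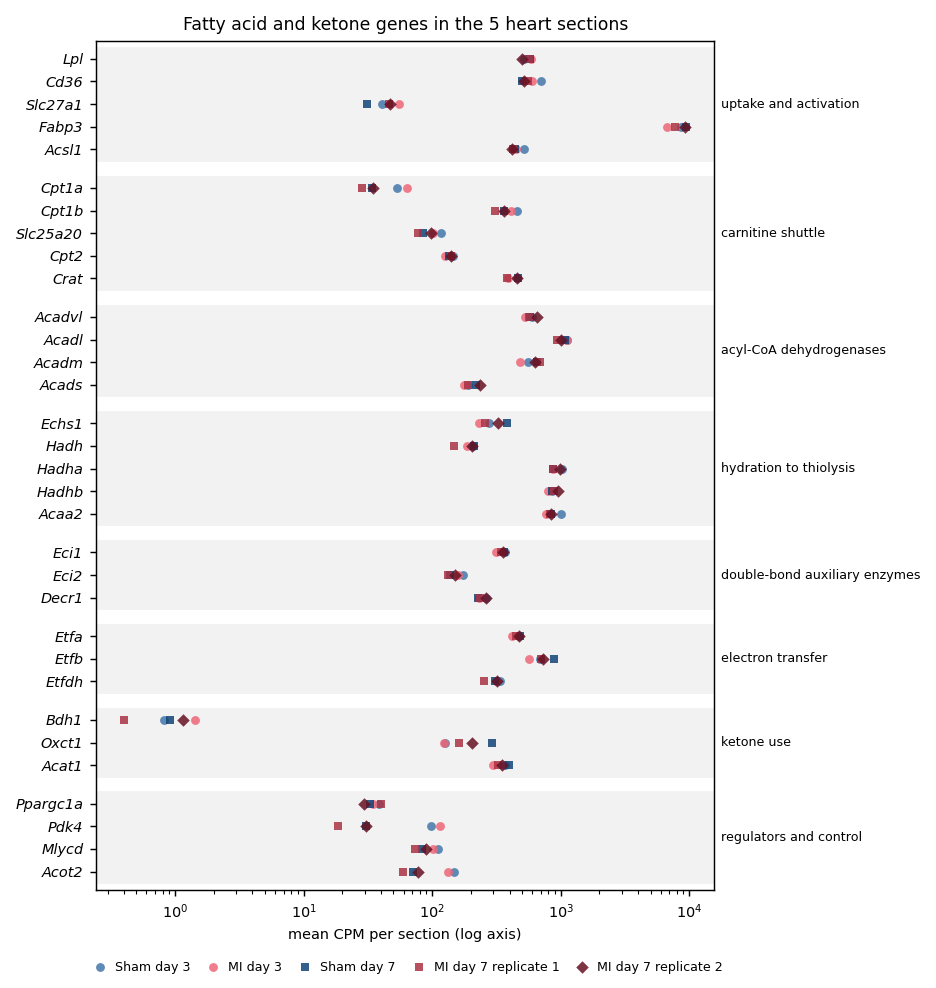
Mean CPM per section (log axis) of the 32 tested members, grouped by role, with 1 point for each of the 5 sections. Most members lie within a narrow band over all sections, while Pdk4, Acot2 and Cpt1a are lower and Oxct1 is higher in the day 7 sections (squares and diamonds) than in the day 3 sections (circles).

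Pdk4 and Acot2 were the members called between day 3 and day 7. Pdk4, the kinase that shuts off pyruvate dehydrogenase and so spares glucose when fat is burned, fell 4.01-fold. Acot2, the mitochondrial thioesterase that cleaves acyl-CoA back to free fatty acid, fell 2.01-fold. Oxct1, the enzyme that commits ketone bodies to oxidation, stood 1.77-fold higher at day 7, without passing the test. In a limma fit over the 5 sections with operation as a covariate, none of the 32 members was called higher at day 7 at an adjusted p under 0.05, against 0.247% of all tested genes. Pdk4 and Acot2, 2 of 32 or 6.25%, were called lower, against 0.348% of all tested genes. At an unadjusted p under 0.05, 4 members (12.5%) were higher, against 3.33% of all genes, and 5 (15.6%) were lower, against 21.7%. Of 6 adipocyte markers only Cidea and Dio2 were listed for all 5 sections. They summed to 50.02 and 51.05 CPM at day 3 and 30.5 to 40.5 at day 7. Nearly all of this was Cidea, at 28.5 to 48.8 CPM over the sections, against 1.05 to 2.28 for Dio2. The 4 mural markers summed to 270.1 to 305 CPM at day 3 and 372 to 440.0 CPM at day 7. The part of such cells in the day differences was not tested.

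Pdk4 stood at 98.4 CPM in Sham day 3, 115 in MI day 3, 30.6 in Sham day 7, and 18.6 and 30.8 in the MI day 7 sections. Every day 7 section lay well under both day 3 sections. The log2 difference was -1.98 ± 0.23 (SE; adjusted p = 0.0316, limma). Between the MI day 7 sections Pdk4 was also the member that differed most, by 0.70 on the log2 scale. Its fall was -1.65 between the sham sections and -2.22 between the MI sections, and the difference of these, -0.57 ± 0.40, did not pass the test. All 3 MI sections were deposited as corrected counts, while the sham sections differed from each other in processing and in sex markers.

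Acot2 read 148 CPM in Sham day 3, 132 in MI day 3, 70.6 in Sham day 7, and 59.4 and 78.3 in the MI day 7 sections, again with no overlap between the days. Its log2 difference was -0.99 ± 0.15 (adjusted p = 0.0482, limma), so close to the threshold that a pseudocount of 5 gave an adjusted p of 0.0559 and leaving out the MI day 3 section gave 0.102. Without the mean-variance trend neither gene passed, with adjusted p of 0.0698 for Pdk4 and 0.0904 for Acot2. Acot2 has a near-identical neighbour on chromosome 12, Acot1, a cytosolic thioesterase, and reads that could come from either gene are uncertain between them. Acot1 plus Acot2 together summed to 284 and 252 CPM in the day 3 sections and to 98.7, 88.4 and 112 CPM in the day 7 sections, a ratio of 2.69 between the days for the pair, whichever gene the reads belong to.

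Cpt1a, the liver form of the outer-membrane carnitine palmitoyltransferase that starts fatty acid import, had 53.3 CPM in Sham day 3, 63.4 in MI day 3, 34.3 in Sham day 7, and 28.5 and 34.7 in the MI day 7 sections. The days did not overlap, and the log2 difference was -0.83 ± 0.15, which missed the threshold (adjusted p = 0.0677, limma). Its muscle counterpart Cpt1b had a smaller difference of -0.30 ± 0.13. The ratio of Cpt1b to Cpt1a was 8.57 and 6.43 in the day 3 sections and 10.6, 10.9 and 10.5 in the sections of day 7, higher in each of the latter.

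The promoter sequences of the 3 genes with the most negative day differences, and of Oxct1 with the most positive, are shown so that they can be read beside these values. Windows run from 250 bases before to 50 bases after the first start listed in RefSeq (build GRCm38.p6), 5′ to 3′ on the gene's strand. They lie at chr6:5496229-5496528 on the minus strand for Pdk4, chr12:83987611-83987910 on the plus strand for Acot2, chr19:3323051-3323350 on the plus strand for Cpt1a and chr15:4026178-4026477 on the plus strand for Oxct1. In the GENCODE annotation of GRCm38 the genes themselves span 5483351 to 5496309 on chromosome 6 (Pdk4), 83987861 to 83993873 on chromosome 12 (Acot2), 3322334 to 3385733 on chromosome 19 (Cpt1a) and 4026383 to 4155344 on chromosome 15 (Oxct1). Capitals mark the nuclear receptor half-site AGGTCA on either strand.
Pdk4: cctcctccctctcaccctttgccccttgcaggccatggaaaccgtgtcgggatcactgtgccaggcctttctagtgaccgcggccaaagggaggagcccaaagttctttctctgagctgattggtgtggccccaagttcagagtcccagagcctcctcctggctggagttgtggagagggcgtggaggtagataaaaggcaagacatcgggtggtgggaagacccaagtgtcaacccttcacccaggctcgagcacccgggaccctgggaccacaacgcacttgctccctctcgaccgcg
Acot2: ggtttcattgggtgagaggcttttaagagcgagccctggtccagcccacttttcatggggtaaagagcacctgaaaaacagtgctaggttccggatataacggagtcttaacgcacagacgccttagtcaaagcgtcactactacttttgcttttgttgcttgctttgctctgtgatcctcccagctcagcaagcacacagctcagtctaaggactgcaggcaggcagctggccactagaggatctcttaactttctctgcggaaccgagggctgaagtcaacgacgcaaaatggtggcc
Cpt1a: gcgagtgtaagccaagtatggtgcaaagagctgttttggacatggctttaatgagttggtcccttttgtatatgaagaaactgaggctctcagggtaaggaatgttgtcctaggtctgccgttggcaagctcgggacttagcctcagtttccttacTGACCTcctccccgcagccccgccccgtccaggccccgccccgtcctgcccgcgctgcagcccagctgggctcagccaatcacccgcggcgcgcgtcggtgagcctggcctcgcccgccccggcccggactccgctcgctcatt
Oxct1: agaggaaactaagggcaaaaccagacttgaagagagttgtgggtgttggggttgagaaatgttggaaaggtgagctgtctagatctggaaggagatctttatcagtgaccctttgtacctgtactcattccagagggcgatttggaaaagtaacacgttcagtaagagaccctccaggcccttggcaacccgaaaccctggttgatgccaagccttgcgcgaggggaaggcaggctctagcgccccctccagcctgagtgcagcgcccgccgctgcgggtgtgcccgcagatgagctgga

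RefSeq windows were matched for 27 of the 33 members, and Cpt1b, Decr1, Acaa2, Lpl, Acat1 and Crat had none. The half-site AGGTCA was in 5 of the 27 (18.5%), Cpt1a, Acadm, Acadvl, Cd36 and Echs1, against 16.0% of 27025 promoters of the same length. AGGTCANAGGTCA, a pair of half-sites 1 base apart that PPARα binds with its partner RXR, was in none of the 27 members as written, and in 0.0444% of all promoters. With up to 2 mismatches over both strands it was in 4 members (14.8%) against 3.81% of all promoters. The windows of Cd36 and Echs1 were in both counts, and of the near matches themselves only that of Echs1 contains AGGTCA. The element TCAAGGTCA, bound by estrogen-related receptors, was in none of the 27 and in 0.407% of all promoters. Pdk4, Acot2 and Oxct1 held none of these letters in this window. The near matches, written on the strand of the motif with matching bases in capitals, were as follows.
Cd36: AaGTCAgAGGcCA
Echs1: AGGTCAcgGGTCc
Etfa: AGGgCAaAGGTaA
Slc25a20: AGGTgAaAGGTCg

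Among these 4, Echs1 had a day difference of 0.39 ± 0.14, Etfa of 0.09 ± 0.12, Cd36 of -0.29 ± 0.13 and Slc25a20 of -0.32 ± 0.14, none past the threshold and on both sides of 0. The Hadha and Hadhb windows share 228 bases, since these genes start 273 bases apart and run in opposite directions on chromosome 5. Hadha ran from 870.0 CPM in Sham day 7 to 1025 CPM in Sham day 3, and Hadhb from 790.2 CPM in MI day 3 to 959 CPM in MI day 7 replicate 2. Their day differences were -0.05 ± 0.14 and 0.13 ± 0.13, on either side of 0 and neither past the threshold. Member windows had a median GC content of 60.7%, against 52.7% over all promoters.

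The ketone genes were uneven. Oxct1 gave 126 CPM in Sham day 3, 123 in MI day 3, 294 in Sham day 7, and 161 and 204 in the MI day 7 sections. All day 7 sections were above both day 3 sections, and the sham section was the highest. The log2 difference was 0.84 ± 0.18 with an adjusted p of 0.0947. Leaving out either sham section lowered it to 0.56 and leaving out MI day 3 raised it to 1.22, none of these past the threshold. Without MI day 7 replicate 1 it was 0.97 and passed (adjusted p = 0.0419, limma). Acat1, which splits acetoacetyl-CoA into acetyl-CoA, had a difference of 0.14 ± 0.11, and Bdh1 was too low to read.

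Across the 15 genes of the acyl-CoA dehydrogenases, the later steps of the β-oxidation cycle, the auxiliary enzymes and electron transfer, the day difference lay between -0.24 and 0.39. Its median was 0.08, and 8 of 15 were above 0, against 22.6% of all tested genes. The acyl-CoA dehydrogenases carry out the first oxidation of the cycle, each for a range of chain lengths. Acadm, for medium chains, read 561 CPM in Sham day 3, 484 in MI day 3, 656 in Sham day 7, and 685 and 635 in the MI day 7 sections. It was higher in every day 7 section, by 0.35 ± 0.13 (adjusted p = 0.163, limma), while Acadl for long chains differed by -0.15 ± 0.13. Echs1, the hydratase of the short-chain cycle, read 275 CPM in Sham day 3, 231 in MI day 3, 382 in Sham day 7, and 256 and 328 in the MI day 7 sections, with overlap between the days. Etfb, the β-subunit of the electron transfer flavoprotein, read 689 CPM in Sham day 3, 571 in MI day 3, 882 in Sham day 7, and 705 and 726 in the MI day 7 sections. It did not overlap between the days, at a log2 difference of 0.34 ± 0.12, whereas Etfa and Etfdh of the same relay differed by 0.09 ± 0.12 and -0.13 ± 0.14. Among the auxiliary enzymes that move double bonds of unsaturated fatty acids, Eci1 gave 366 CPM in Sham day 3, 314 in MI day 3, 362 in Sham day 7, and 343 and 358 in the MI day 7 sections, level at 0.08 ± 0.12.

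Uptake genes had day differences from -0.30 to 0.26. Cd36, the main fatty acid translocase of the heart, had 698 CPM in Sham day 3, 599 in MI day 3, 504 in Sham day 7, and 558 and 521 in the MI day 7 sections, lower in every day 7 section by 0.29 on the log2 scale but not past the threshold (adjusted p = 0.225, limma). Among the regulators Mlycd, which removes the malonyl-CoA that blocks carnitine palmitoyltransferase, had a difference of -0.37 ± 0.13. Ppargc1a, at 29.3 to 39.8 CPM, differed by -0.10 ± 0.16. Lpl gave -0.01 ± 0.14 over levels of 496 to 584 CPM.

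The sign of such small differences depended on what they were measured against. The MI day 7 replicate 1 section stood apart in its mitochondrial counts, 24.7% of the total against 13.8% to 15.8% in the other 4 sections. The median of all tested genes was itself -0.18 between the days, and -0.14 without that section, while the members' median of -0.05 lay 0.14 above the former, with 22 of 32 members above the all-gene median. Under median-of-ratios scaling the members' median became 0.15, and 9 members changed sign, among them Acadl, Etfdh, Hadha, Ppargc1a and Lpl. Within spots where CM1, the main cardiomyocyte state, had the highest score, members and all genes both had a median of -0.16 and the gap between them was 0.00257. Counted by sections that did not overlap, 4 members were higher at day 7 (12.5%, against 5.79% of all genes) and 10 were lower (31.2%, against 38.9%). With median-of-ratios scaling the counts were 13 higher and 4 lower, against 18.0% and 17.0% of all genes, and the 4 lower were Pdk4, Acot2, Cpt1a and Mlycd.

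Of 52 other genes of lipid and ketone metabolism, 51 were tested, none was called higher, against 0.247% of all genes, and 3 fell, against 0.348%, among them Angptl4 and Acot1, both known targets of PPARα. At an unadjusted p under 0.05, 5 of the 51 were higher, against 3.33% of all genes, and 11 lower, near the 21.7% of all genes. Angptl4, a secreted inhibitor of lipoprotein lipase, had 81.6 and 122 CPM in the day 3 sections and 16.2, 12.6 and 29.1 in those of day 7, a difference of -2.46 ± 0.31 (adjusted p = 0.0319, limma, and 0.0723 without the mean-variance trend). Acot1 had 137 and 120.0 CPM at day 3 and 28.1, 29.0 and 33.5 at day 7 (-2.05 ± 0.13, adjusted p = 0.00822, limma). Differences of the same sign were measured for the uncoupling proteins Ucp2 (-1.14 ± 0.20) and Ucp3 (-1.03 ± 0.16), which missed the threshold.

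**Figure D2:**
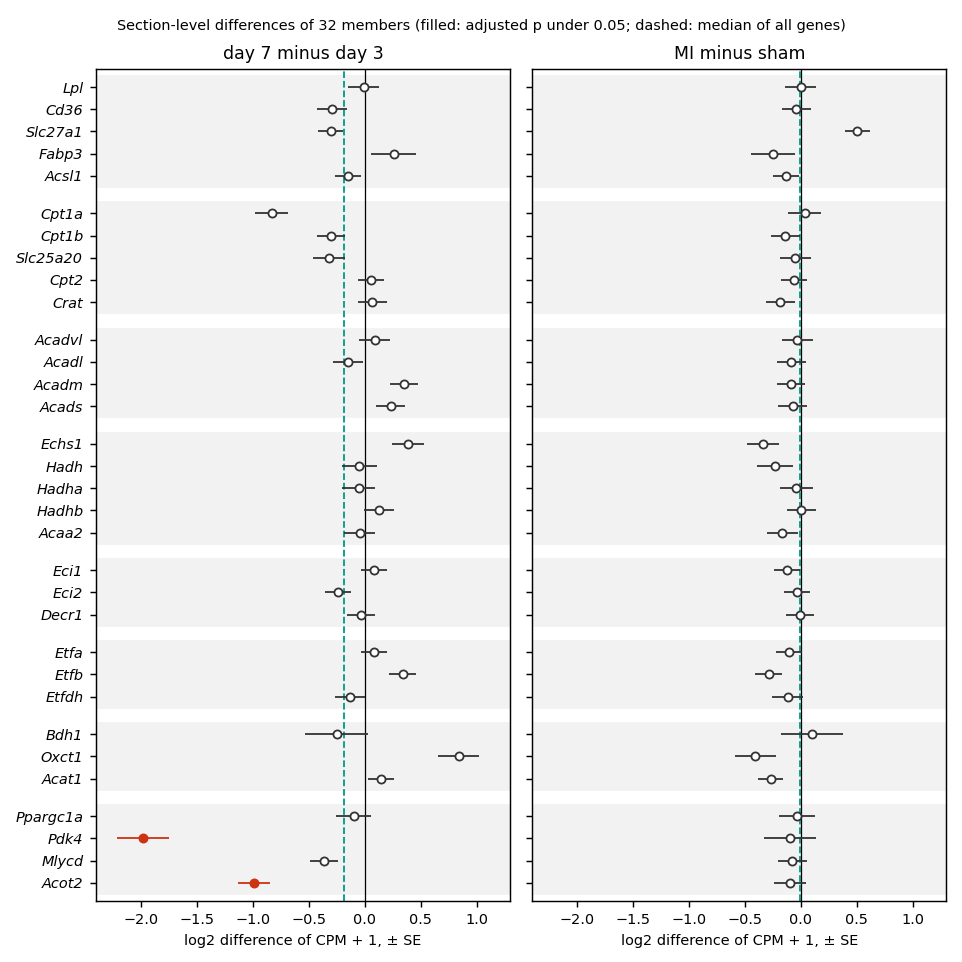
Log2 differences of CPM + 1 with standard errors for the 32 tested members, day 7 minus day 3 (left) and MI minus sham (right), from the fit over 5 sections. Filled points passed an adjusted p under 0.05, which Pdk4 and Acot2 did for the days and no member did for MI, and the dashed line is the median of all tested genes.

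Whole-section values of MI and sham hearts gave no called member, and Slc27a1 and Oxct1 lay farthest from 0. No member was called higher in MI than in sham with day as a covariate, against 0.00773% of all tested genes, and none lower, against 0%. At an unadjusted p under 0.05, Slc27a1 was higher, 1 of 32 against 5.35% of all genes, and Etfb lower, against 2.75%. The members' median was -0.09, against -0.01 for all genes. Below 0 were 28 of 32 members, while 47.9% of all genes were above 0. With mitochondrial and haemoglobin genes left out 21 of 32 members were below 0, while 55.7% of all genes were above. Standard errors ran from 0.11 to 0.28. Marker lists also separated the operations without overlap: fibroblast markers summed to 3558 to 4045 CPM in the sham and 4842 to 6493 CPM in the MI sections, endothelial markers to 2039 to 2053 and 1712 to 1785 CPM, immune markers to 90.6 to 98.3 and 151 to 893 CPM, and blood markers to 3977 to 6242 and 7667 to 10488 CPM. Their part in the differences was not tested.

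Slc27a1, a long-chain fatty acid transporter of the plasma membrane, stood at 40.9 CPM in Sham day 3, 55.7 in MI day 3, 31.4 in Sham day 7, and 46.2 and 46.9 in the MI day 7 sections. Each MI section exceeded both sham sections. The log2 difference of 0.50 ± 0.11 did not survive adjustment (adjusted p = 0.377, limma). Oxct1 and Echs1 followed in size, at -0.41 ± 0.18 and -0.33 ± 0.14, from the section values given above. For Oxct1 the MI and sham sections were alike at day 3, at -0.03, and apart at day 7, at -0.69 ± 0.25 (adjusted p = 0.697, limma).

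Counted by non-overlapping sections, Slc27a1 was the 1 member higher in MI, against 6.84% of all genes, and Hadh, Eci1, Acat1 and Crat were the 4 lower (12.5%), against 9.6%. Under median-of-ratios scaling Slc27a1 was again the member higher, while the lower members were Acadl and Cpt1b instead, against 10.7% and 10.6% of all genes. At day 7 alone limma called no member, against 0.186% of all genes called higher and 0.0464% lower, and Slc27a1 (higher) and Oxct1 (lower) had an unadjusted p under 0.05, against 2.43% and 1.69% of all genes. The MI difference at day 7 minus that at day 3 was called for no member, against 0.0619% higher and 0.363% lower, and none had an unadjusted p under 0.05. Its standard errors of 0.33 to 0.58 meant that differences of the size of the Oxct1 value, -0.66 ± 0.38, could not be resolved.

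At day 3, 1 section stood for each operation, and the 2 sections differed in sex markers and in processing. There 27 of 32 members were below the sham value, while 54.7% of all tested genes were above it. A limma fit of the group means, whose spread came from the MI day 7 sections and which was added after seeing the data, called no member higher, against 2.45% of all genes, and none lower, against 0.379%. No member had an unadjusted p under 0.05 there, against 7.76% of all genes higher and 2.34% lower. Acaa2 and Fabp3 gave the lowest values of the set, -0.38 and -0.37, and the members' median lay 0.19 under that of all genes. In CM1-dominant spots that gap was 0.08. The MI day 3 section was the one with less cardiomyocyte marker RNA and more immune marker RNA, and the part of these cell types in the difference was not tested.

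Most members were lower in spots outside the main cardiomyocyte class. Cpt1a was higher in fibroblast spots of every section and varied in sign between sections elsewhere. The deposited metadata give each spot scores for 11 cell types, and spots were classed by the highest score. These scores were made from the same expression values, so the class differences are descriptions with no test. Compared with CM1-dominant spots of the same section, the members' median difference was -0.20 in spots dominated by the cardiomyocyte state CM4, -0.35 in fibroblast (FB) spots, -0.33 in endocardial (EndoEC) spots, -0.42 in Macrophage spots and -0.08 in endothelial (EC) spots. For all tested genes these medians were 0.06, 0.17, 0.08, 0.09 and 0.09. In EC spots the Cpt1a mean of 0.02 lay under the all-gene median. FB spots held 23662 to 37915 CPM of cardiomyocyte markers, against 37616 to 44217 in CM1 spots, and their fibroblast markers reached 5604 to 16624 CPM against 2290.0 to 3707. The part of this mixing in the values was not tested.

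In FB spots 26 of the 32 members (81.2%) were lower than in CM1 spots in every section, against 5.39% of all genes. A change of one sign in all sections with a mean of at least 0.5 was reached there by 2 members downwards, Acadm at -0.57 and Ppargc1a at -0.50, against 1.18% of all genes, and by Cpt1a upwards at 0.53, against 14%. MI day 3, with 22 FB spots, gave the most negative values of Acadm and Ppargc1a, -1.13 and -1.09, and with a minimum of 40 spots, which left that section out, neither was counted and Cpt1a still was. In FB spots Cpt1a thus differed in sign from its muscle counterpart Cpt1b, which was at -0.44. In CM4 spots none passed this size either way, against 2.94% higher and 0.302% lower, and in EC spots none did against 2.48% and 0.588%. EndoEC spots had none against 6.67% and 1.18%. Macrophage spots, which reached 20 spots in 4 sections, had none higher against 7.4% and 6 lower, Acadvl, Eci1, Etfdh, Fabp3, Mlycd and Acot2, against 1.59%.

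**Figure D3:**
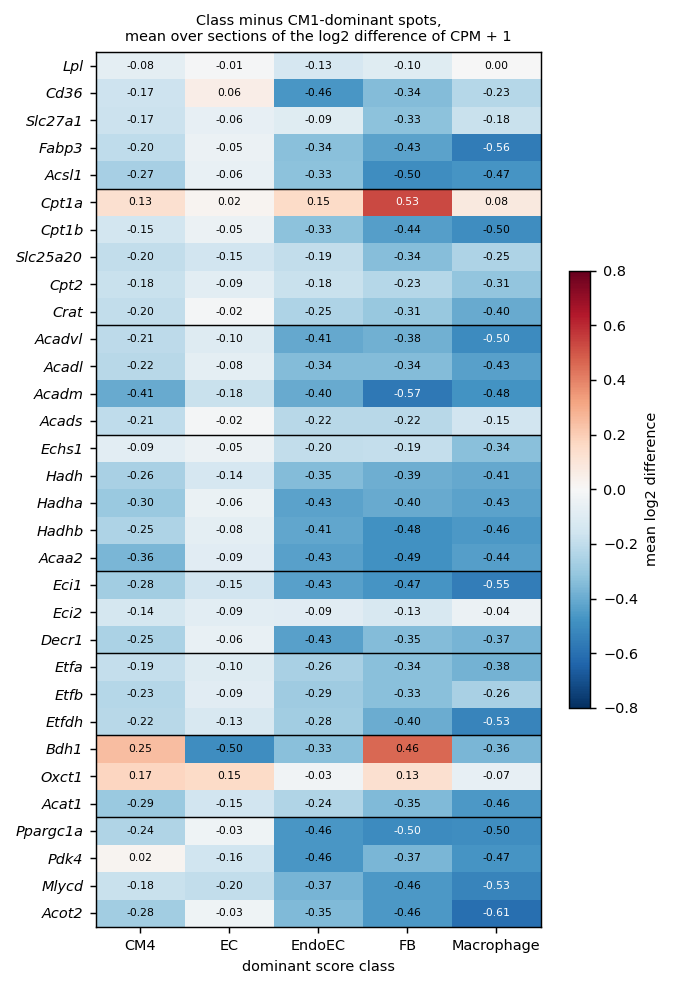
Mean over sections of the within-section log2 difference of CPM + 1 between spots of each dominant score class and CM1-dominant spots, for the 32 tested members in the order of their roles. FB, EndoEC and Macrophage columns are mostly below 0, and the EC column is near 0. Cpt1a is above 0 in all 5 columns, but only in FB did every section have that sign.

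The Macrophage values came mostly from 1 section. In MI day 3 the members' median difference was -1.29, while it lay between -0.05 and -0.19 in the other 3 sections. Fabp3 in those 20 MI day 3 spots was at 2203 CPM, against 7858 in the CM1 spots of the section, and Hadha at 388 against 1044 CPM. Lpl was nearly even, at 615.5 against 599 CPM, and so was Cpt1a, at 65.4 against 65.9 CPM. Cardiomyocyte markers summed to 15427 CPM in these spots and immune markers to 8630.3 CPM, whereas in the Macrophage-dominant spots of the other 3 sections cardiomyocyte markers were at 39112 CPM or more and immune markers at 514 CPM or less.

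Pdk4, Acot2, Cpt1a and Oxct1, picked for the largest whole-section day differences, were also read within each class. The classes are spots of the same 5 sections, so they are not independent replicates of the day difference. Pdk4 had every day 7 section under both day 3 sections in 6 of 6 classes, and so did Cpt1a, against 1.41% of all genes. In CM1 spots Pdk4 was at 109 and 141 CPM at day 3 and at 30.0, 18.9 and 32.2 CPM at day 7. Within FB spots it was at 83.2 and 91.8 CPM and at 27.3, 19.3 and 18.99 CPM. Acot2 did so in 5 of 6 classes, the exception being Macrophage spots, and 4.72% of all genes did so in 5 or more. Oxct1 was higher at day 7 in 5 of 6 classes, again all but Macrophage, against 1.22% of all genes in 5 or more. No other tested member was lower, and none was higher, in all 6 classes. In CM1-dominant spots alone the limma fit called Pdk4, Acot2 and Cpt1a lower and Oxct1 higher at day 7, with log2 differences of -2.19, -1.13, -0.98 and 0.92. This fit called more genes, 0.769% of all higher and 2.39% lower.

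**Figure D4:**
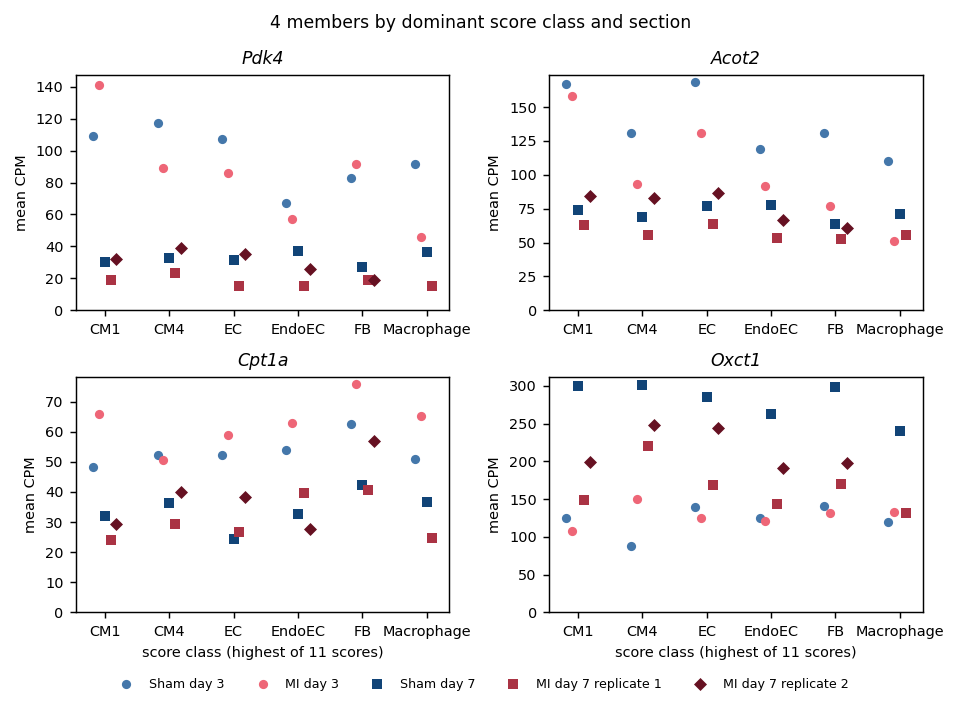
Mean CPM of Pdk4, Acot2, Cpt1a and Oxct1 in spots of 6 dominant score classes, 1 point per section with at least 20 such spots (no error bars). Day 3 circles lie above all day 7 symbols in 6 of 6 classes for Pdk4 and Cpt1a, and Oxct1 is highest in the Sham day 7 section in each class.

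Oxct1 and the 15 enzymes were also compared between CM4 and CM1 spots. In the MI sections its level was higher in CM4 than in CM1 spots, at 150.1 against 108 CPM in MI day 3, 219.7 against 149 in MI day 7 replicate 1, and 248 against 199 CPM in replicate 2. In Sham day 3 it was lower, at 87.7 against 125 CPM, and in Sham day 7 level, at 301 against 299.6 CPM. Higher Oxct1 than in CM1 spots was not particular to CM4. In MI day 3 it was at 132 CPM in FB, 125 in EC, 122 in EndoEC and 133 in Macrophage spots. In MI day 7 replicate 1 it was at 170 in FB and 168 in EC spots, but 143 in EndoEC and 132 in Macrophage spots. In replicate 2 it was at 245 CPM in EC spots, but 198 in FB and 191 in EndoEC spots. All 15 enzymes were lower in CM4 spots in Sham day 3, MI day 3 and Sham day 7, with medians of -0.30, -0.53 and -0.15, against -0.10, 0.17 and -0.09 for all tested genes. In MI day 7 replicate 2 this held for 14 of 15, and in replicate 1 for 8 of 15, where 7 went the same way as Oxct1, with medians of -0.20 and -0.0051, against 0.18 and 0.20 for all tested genes. CM4 is the immature cardiomyocyte state that the study follows in regeneration. CM4 spots of MI day 3 held 30706 CPM of cardiomyocyte and 978 CPM of immune markers, against 37616 and 260.3 CPM in CM1 spots. In every section CM4 spots held less cardiomyocyte and more fibroblast marker RNA than CM1 spots. Fibroblast markers summed to 3833 to 7134 CPM in CM4 and 2290 to 3707 CPM in CM1 spots. The part of this mixing in the values was not tested.

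Summed over the 15 enzymes, the level per spot had a like median in all sections but a lower tail in MI day 3 and in MI day 7 replicate 2. The median log2 of the summed CPM was between 12.9 and 13.0 in every section. The 5th percentile was 11.7 in MI day 3 and 12.1 in MI day 7 replicate 2, against 12.5 in Sham day 3, 12.6 in Sham day 7 and 12.6 in MI day 7 replicate 1. In MI day 3 the low spots lay together on one side of the section, and Moran's I between neighbouring spots, a measure of how alike neighbours are, had a median of 0.33 over the members, against 0.03 over all genes. In the other sections the members' median lay between 0.03 and 0.13. Across the 376 spots of MI day 3, Spearman's rho with the CM1 score was 0.58 for Hadha and 0.62 for Fabp3, but 0.03 for Lpl, 0.06 for Cpt1a and -0.22 for Oxct1. With the score of CM5, an injury-induced cardiomyocyte state, it was 0.56 for Hadha and 0.53 for Fabp3. The members' median rho was 0.40 with CM1, 0.44 with CM5, -0.40 with FB and -0.36 with Macrophage scores. For all genes these medians were -0.05, -0.01, 0.04 and 0.02. The spots share 1 library, and depth itself had a rho of -0.18 with Hadha and -0.01 with Fabp3.

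**Figure D5:**
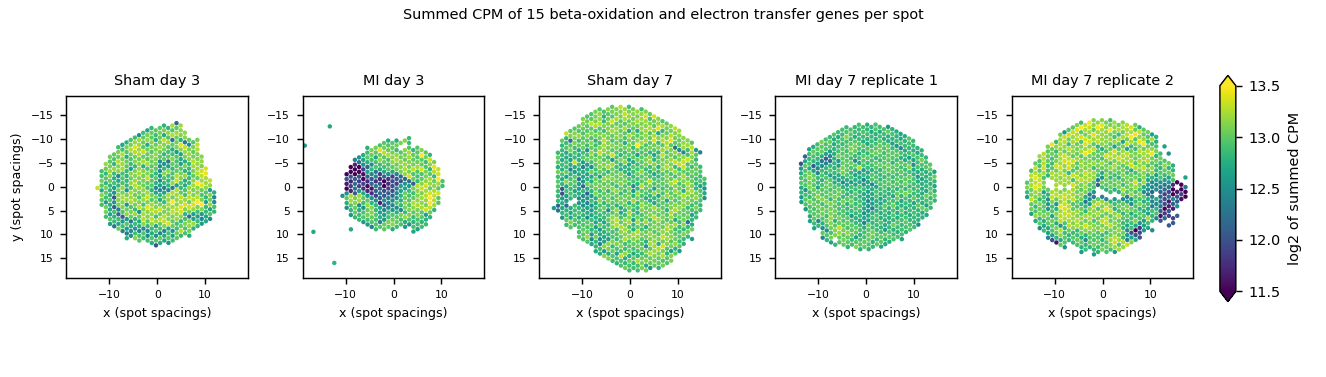
Maps of the 5 sections with each spot coloured by the log2 of the summed CPM of 15 β-oxidation and electron transfer genes, on axes of spot spacings from the section's centre (13 of 3364 spots outside the frame are not drawn). Dark spots form a patch at one side of MI day 3 and a smaller one at the edge of MI day 7 replicate 2, while the 2 sham sections show no such patch.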

How the data were processed

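The 5 Visium sections (1 Sham day 3, 1 MI day 3, 1 Sham day 7, 2 MI day 7) were analysed. The authors mapped reads to GRCm38 with Space Ranger (version not given in the sources used here) and used Seurat afterwards. For Sham day 3 the authors deposited raw UMI counts. The other 4 deposited tables hold sctransform-corrected counts, treated as a score and not as raw counts, so no count model was used. Per spot the authors deposited 11 cell type scores from 0 to 1 (a fraction, made by label transfer from single-nucleus data) and positions in image pixels (another unit, for the maps). Each spot was scaled to CPM over the 13711 genes in all 5 tables and averaged by section. limma 3.58.1 in R 4.3.3 was fitted to log2(CPM + 1) with a mean-variance trend, after a filter of 1 CPM in at least 2 sections, two-sided with Benjamini-Hochberg adjustment over 12933 genes. Folds on this scale understate changes of low genes, and fold values in the text are ratios of mean CPM. The day and MI comparisons shared 1 fit with 2 residual degrees of freedom, and the day 7 and interaction contrasts used group means with 1. A score class was used in a section with at least 20 spots in which that score was the highest. Since one table is raw and the others are corrected, Sham day 3 was treated differently from the rest before any comparison. The fit was checked on simulated data.

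The members and lists were chosen with earlier results of these data known. Section values are given for called members, the 3 largest differences in the day and MI comparisons and at least 1 member of each role. Other pathway genes are named if called or among the 5 largest day differences, and 1 of them is not reported here. Promoter windows came from RefSeq (GRCm38.p6), 1 per gene. Scaling, pseudocount, filters, trend, spot selection, sex and each section were varied.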

Additional observations from a re-analysis of the deposited data

How the results depend on the processing

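With 5 sections, of which only MI day 7 was repeated, standard errors of the members ran from 0.11 to 0.28 on the log2 scale in the day and MI comparisons, and differences of that size could not be resolved. The main comparison of days called 2 members. It called 5 with median-of-ratios scaling, 4 with mitochondrial and haemoglobin genes left out, 1 with a pseudocount of 5, 0 without the mean-variance trend, 4 in CM1-dominant spots and 7 with the sex of the animal, read from Xist and Ddx3y, as a covariate, and 1 without MI day 3, 3 without either sham section, 4 without MI day 7 replicate 1 and 2 without replicate 2. Pdk4 and Acot2 kept a negative sign in all 15 alternatives, Pdk4 from -2.22 to -1.65 and Acot2 from -1.13 to -0.80, while 9 of the 32 members, all within 0.15 of 0 as reported, changed sign with median-of-ratios scaling, and up to 6 did in the other alternatives for the days. For MI against sham up to 11 members changed sign, all within 0.10 of 0. Cpt1a passed the threshold in 8 of the 15 and Oxct1 in 5. Over all genes the count of 77 became 185 with median-of-ratios scaling, 213 without mitochondrial and haemoglobin genes, 137 with a minimum of 10 CPM, 19 without the trend, 403 in CM1-dominant spots and 2280.0 with sex, and 747 without Sham day 3, 758 without Sham day 7, 145 without MI day 7 replicate 1 and 32 without replicate 2. The split between higher and lower was 32 to 45 as reported and 127 to 58 with median-of-ratios scaling. The members' median minus that of all genes, 0.14, was 0.00257 in CM1-dominant spots and 0.0304 (without MI day 3) to 0.255 (without Sham day 7) with sections left out.

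For MI against sham, sex as a covariate called 2 members, Slc27a1 and Oxct1, and the other alternatives called 0. Over all genes the count of 1 became 3, 0, 32 and 277 with median-of-ratios scaling, a pseudocount of 5, CM1-dominant spots and sex, and 29, 34, 366, 87 and 0 without Sham day 3, MI day 3, Sham day 7 and MI day 7 replicates 1 and 2, where the members' median minus that of all genes ran from -0.1945 (without Sham day 7) to -0.0166 (without MI day 3). At day 7 the 30 genes called became 0 with median-of-ratios scaling and with mitochondrial and haemoglobin genes left out, 87 with summed spots, 60 with a minimum of 10 CPM and 63 in CM1-dominant spots, against 29 to 34 without a day 3 section. Leaving out an MI day 7 section left no residual degrees of freedom there. The 55 genes of the interaction became 0 with median-of-ratios scaling and, in alternatives chosen after seeing the data, 0 with mitochondrial and haemoglobin genes left out, 158 with summed spots, 130 with a pseudocount of 5, 30.0 without the trend and 87 without low-depth spots, and the members' median minus that of all genes was 0.11 in CM1-dominant spots against 0.20.

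Counts of members without overlap, whose alternatives were also chosen after seeing the data, became 13 higher at day 7 with median-of-ratios scaling (18.0% of all genes) and 7 with mitochondrial and haemoglobin genes left out (9.46%). Lower at day 7 were 4 (17.0%) and 8 (31.3%), and lower in MI 2 (10.6%) and 2 (7.24%). Of the class counts, that of CM4 became 1 lower with a score of at least 0.5 (0.974% of all genes), FB 1 higher and 0 lower with at least 40 spots (13.8% and 0.572%), EndoEC 1 lower with a score of at least 0.5 (1.42%), and Macrophage, each from 1 section, 1 lower with at least 40 spots (7.42%) and 1 higher and 1 lower with a score of at least 0.5 (15.3% and 11.2%). The cause of these changes was not tested. No paired analysis was possible because the groups share fewer than 2 replicate numbers.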
